A study of Mus musculus with 2 samples.

Results

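The transcripts described here encode 10 proteins of 3 families that respond to calcium or bind sugars at the cell surface: the S100 genes *S100a4*, *S100a6*, *S100a10* and *S100a11*, the annexins *Anxa1*, *Anxa2*, *Anxa5* and *Anxa6*, and the galectins *Lgals1* and *Lgals3*. They were taken by name, without a rule on their values, but with earlier results of these data known. They are 10 of the 14732 gene symbols listed in at least 1 of 2 RNA-sequencing libraries. All 10 were listed in both libraries. Eomes is a T-box transcription factor of CD8+ T cells and natural killer cells, and the comparison asked how its forced expression altered the transcripts of activated CD8+ T cells.

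Both libraries came from OT-I transgenic C57BL/6 mice aged 6-8 weeks, whose CD8+ T cells recognize the ovalbumin peptide SIINFEKL. Cells from spleen and lymph nodes were stimulated for 24 hours with 2.5 ng/mL peptide and 10 U/mL IL-2 and then transduced with a retrovirus. Control cells carried the empty vector and Eomes cells carried the vector with *Eomes*, and both expressed human CD2 as the marker by which transduced cells were sorted 48 hours later. Sorted cells, 40000 per well, were restimulated with the same doses for 3 days, and total RNA was sequenced from 1 library per condition. The labels do not say how many mice or wells each library held. With 1 library per condition no test between conditions is possible, and each interval below is a 95% counting interval that compares these 2 libraries only.

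S100 proteins are small calcium-binding proteins that change shape when calcium rises and then grip partner proteins, among them annexins and the cytoskeleton. Annexins bind acidic phospholipids of membranes in the presence of calcium and take part in membrane repair, vesicle traffic and the handling of dying cells. Galectins bind galactose-containing sugar chains on glycoproteins, and those released by lymphocytes can cross-link receptors on the T cell surface. In mouse CD8+ T cells, *S100a4*, *S100a6*, *Anxa1*, *Anxa2*, *Lgals1* and *Lgals3* are commonly higher in activated and effector cells than in naive ones.

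Values were deposited as FPKM, fragments scaled to transcript length and to library depth, which can be compared between genes as levels per length. A gene was called expressed when it had at least 1 FPKM in at least 1 library, which 9925 genes and all 10 members did. Log2 ratios were Eomes over control, so that a negative ratio means a lower value in the Eomes library, and a difference of more than 1.5-fold was counted. *Eomes* itself was 2.47 FPKM in control and 129.6 FPKM in the Eomes library, a log2 ratio of 5.71. Depth was not stated and was estimated from the steps between low values as about 19400000 reads in control and 19300000 in the Eomes library.

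Promoters are shown for the members with the lowest and the highest ratios for which RefSeq gave one, so that the sequence before each start can be read beside its value. They are *S100a4*, *S100a6* and *Lgals3*, the members with the 3 lowest ratios, and *Anxa1*, the member with the highest. Each is the coding strand, 250 bases before to 50 bases after the RefSeq start, in the build GRCm38.p6. Capitals mark matches on either strand to 3 short motifs. TATAAA is the TATA box near which transcription begins. TGTGGT is bound by RUNX factors of T cells. GGTGTG is the core of the site bound by T-box factors such as Eomes.
S100a4, chr3:90603520-90603819, plus strand: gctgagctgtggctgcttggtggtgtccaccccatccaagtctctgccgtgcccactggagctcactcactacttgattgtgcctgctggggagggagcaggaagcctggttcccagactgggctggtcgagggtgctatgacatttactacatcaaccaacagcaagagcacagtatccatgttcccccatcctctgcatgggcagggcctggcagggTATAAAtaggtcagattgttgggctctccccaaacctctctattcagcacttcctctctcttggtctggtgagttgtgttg
S100a6, chr3:90612644-90612943, plus strand: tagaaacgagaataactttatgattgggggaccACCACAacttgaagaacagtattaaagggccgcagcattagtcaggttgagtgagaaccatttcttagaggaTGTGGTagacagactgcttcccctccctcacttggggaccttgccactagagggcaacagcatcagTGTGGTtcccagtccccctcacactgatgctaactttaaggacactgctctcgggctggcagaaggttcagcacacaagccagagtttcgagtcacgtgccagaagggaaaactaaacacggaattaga
Lgals3, chr14:47373610-47373909, plus strand: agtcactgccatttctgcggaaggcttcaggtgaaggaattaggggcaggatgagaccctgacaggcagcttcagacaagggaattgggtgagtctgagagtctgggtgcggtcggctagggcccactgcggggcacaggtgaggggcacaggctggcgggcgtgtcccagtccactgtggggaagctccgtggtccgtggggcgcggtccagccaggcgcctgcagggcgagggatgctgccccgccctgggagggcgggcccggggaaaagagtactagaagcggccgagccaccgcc
Anxa1, chr19:20390622-20390921, minus strand: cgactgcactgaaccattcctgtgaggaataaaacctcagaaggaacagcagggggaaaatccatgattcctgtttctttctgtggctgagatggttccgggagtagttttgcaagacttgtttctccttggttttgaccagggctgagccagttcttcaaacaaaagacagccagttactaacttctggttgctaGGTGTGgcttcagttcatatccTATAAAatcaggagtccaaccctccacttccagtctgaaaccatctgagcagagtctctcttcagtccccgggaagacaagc

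RefSeq promoters were matched for 7 of the 10 members, not for *S100a10*, *Anxa6* and *Lgals1*. The full T-box letters AGGTGTGA, which hold GGTGTG within them, were in 0 of these 7 windows and in 1.28% of all 32851 promoters of the same length. GGTGTG was in 2 of 7, *Anxa1* and *Anxa5*, against 19.0% of all promoters. TGTGGT was in 1 of 7, *S100a6*, where it occurred 3 times beginning at positions -217, -145 and -79 counted from the first transcribed base as 0, against 16.8% of all promoters. TGANTCA, an AP-1 site, was in 2 of 7, *S100a11* and *Anxa2*, against 7.81%, and TATAAA was in 3 of 7, *S100a4*, *Anxa1* and *Anxa2*, against 13.6%. The *Lgals3* window held none of these letters. A match here describes letters in a short window and was not a measurement of binding.

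Across the 10 members, 8 were lower and 2 were higher in the Eomes library, with a median log2 ratio of -0.36 against -0.0037 over all expressed genes. Of all expressed genes, 50.5% were lower in the Eomes library, and of those with a mean of at least 100 FPKM, 59.2%. Past 1.5-fold, 3 members were lower, *S100a4*, *S100a6* and *Lgals3*, where 5.19% of expressed genes were. None was more than 1.5-fold higher (0 of 10), where 2.46% of expressed genes were. As the members were chosen with earlier results of these data known, these counts describe the members and are not a test. *Anxa1* and *Anxa2* were the members with the higher values. The direction held for each of the 10 members under every scaling, pseudocount and GC alternative that was run. Only GC centring could have changed a direction, as the scalings shifted all ratios by at most 0.032 and a pseudocount keeps the sign. Summed over the members, control held 4892 FPKM and the Eomes library 3651 FPKM, which were 0.871% and 0.665% of all FPKM in those libraries.

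**Figure D1:**
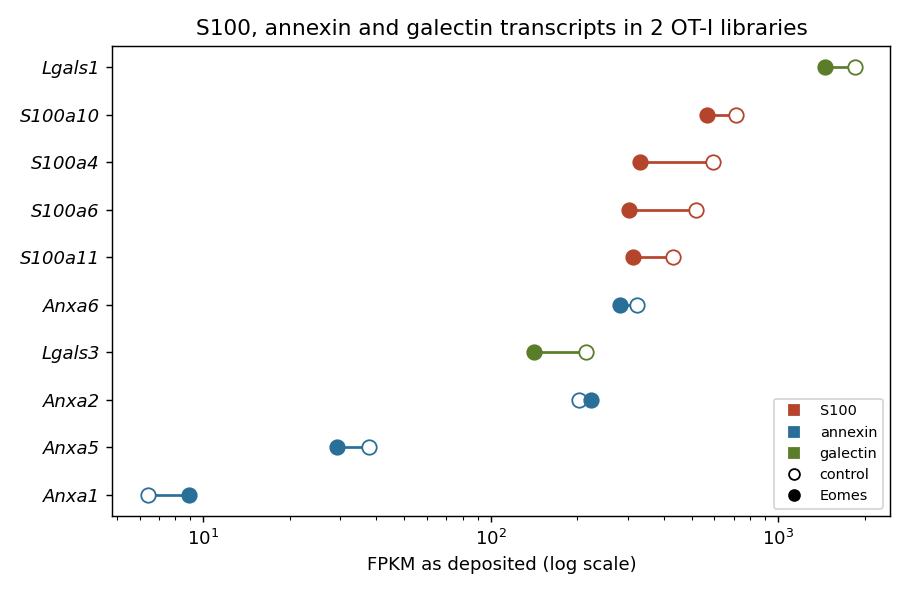
Level of each of the 10 members in FPKM (log scale), control as open circles and the Eomes library as filled circles, 1 library each, coloured by family. Levels ran from 6.41 FPKM for *Anxa1* to 1855 FPKM for *Lgals1* in control, and the filled circle lies left of the open one for all members but *Anxa1* and *Anxa2*.

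*S100a4* encodes a calcium-binding protein that binds non-muscle myosin and is tied to cell motility. It was 591.8 FPKM in control and 331.5 FPKM in the Eomes library, about 5717 and 3186 reads. The control level was 1.79-fold the Eomes level, a log2 ratio of -0.84 with an interval of -0.90 to -0.77, the lowest of the members. Of the 500 expressed genes nearest to it in mean FPKM, 0% had a lower ratio.

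*S100a6*, also called calcyclin, binds the calcyclin-binding protein encoded by *Cacybp* and was close to *S100a4* in level and in ratio. Its values were 516.7 FPKM in control and 302.8 FPKM in the Eomes library. That is 1.71-fold higher in control, a log2 ratio of -0.77 with an interval of -0.83 to -0.72, which overlapped that of *S100a4*. The *S100a4* level was 1.15 times the *S100a6* level in control and 1.09 times in the Eomes library. Among the 500 genes nearest in level, 0.2% had a lower ratio than *S100a6*.

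*S100a11* binds annexin A1 and takes part in membrane repair. It was 431.9 FPKM in control and 313.7 FPKM in the Eomes library, a log2 ratio of -0.46 with an interval of -0.53 to -0.39. *S100a10*, the partner of annexin A2 in a tetramer at the plasma membrane, differs from other S100 proteins in that it no longer binds calcium. It had the highest S100 level, 711.5 FPKM in control and 563.8 FPKM in the Eomes library. Its log2 ratio of -0.34, with an interval of -0.38 to -0.29, was the nearest to 0 of the 4 S100 members and stood apart from that of *S100a11*. Together the 4 S100 members summed to 2252 FPKM in control and 1512 FPKM in the Eomes library, and their median log2 ratio was -0.62.

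**Figure D2:**
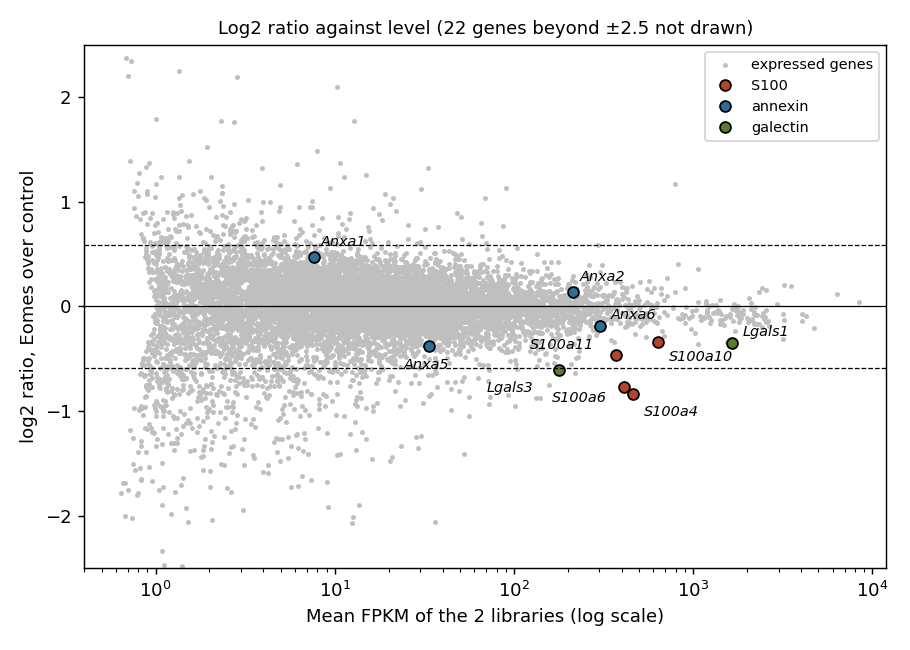
Log2 ratio, Eomes over control, of each expressed gene (grey) and of the 10 members (coloured by family) against the mean FPKM of both libraries (log scale). The 3 lowest members, *S100a4* at -0.84, *S100a6* at -0.77 and *Lgals3* at -0.61, lie at the lower edge of the genes of their level, and 22 genes beyond 2.5 on the log2 scale were not drawn.

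The members were abundant transcripts, and ratios spread less among abundant genes. Over all expressed genes the middle 95% lay between -0.86 and 0.58 on the log2 scale, and between -0.45 and 0.31 over those with a mean of at least 100 FPKM. That mean was reached by 910 expressed genes, among them 8 members, all but *Anxa1* and *Anxa5*. In that range 9 genes, 0.989%, were more than 1.5-fold lower in the Eomes library, and 3 of them were the members *S100a4*, *S100a6* and *Lgals3*. The other 6 were *Ctla4*, *Cd8a*, *Tnfrsf4*, *Ltb*, *Cd2* and *Slc16a3*, named here after their values were seen. More than 1.5-fold higher were 3 genes of that range, 0.33%, and 0 members. When each library was divided by its summed value, giving TPM, the same range held 4 higher and 7 lower genes in place of 3 and 9. Short transcripts are a further class, as the S100 members are 498 to 731 bases long and *Lgals1* is 800 bases long. Among 148 genes of at most 800 bases and at least 100 FPKM, 2 were more than 1.5-fold lower, *S100a4* and *S100a6*, and the median log2 ratio was -0.08. Lower values of any size were more common among short genes. Below 0 were 71.3% of all expressed genes of more than 500 and up to 800 bases, and 64.2% of those of up to 500 bases. Among genes with a mean of at least 100 FPKM these shares were 75.6% and 69.0%. Of the short expressed genes of any level, 20 of 282 and 11 of 67 were more than 1.5-fold lower.

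The annexins were split in direction and lay closer to 0. *Anxa1* encodes annexin A1, a mediator of the anti-inflammatory action of glucocorticoids that acts through formyl peptide receptors. It was the lowest member in level, 6.41 FPKM in control and 8.91 FPKM in the Eomes library, about 208 and 288 reads. The Eomes level was 1.39-fold the control level, a log2 ratio of 0.47 with an interval of 0.21 to 0.74, and 95.8% of the 500 genes nearest in level had a lower ratio.

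*Anxa2* encodes the partner of S100A10 at the plasma membrane. It was 203.3 FPKM in control and 223.9 FPKM in the Eomes library, a log2 ratio of 0.14 with an interval of 0.09 to 0.19. *Anxa5*, whose protein binds phosphatidylserine and is used as a stain for dying cells, was 37.8 FPKM in control and 29.1 FPKM in the Eomes library, a log2 ratio of -0.38 with an interval of -0.50 to -0.25. *Anxa6*, the large annexin with a duplicated core, was 322.5 and 282.6 FPKM, a log2 ratio of -0.19 with an interval of -0.22 to -0.16. Summed over these 4 annexins, control held 570 FPKM and the Eomes library 545 FPKM. Their median log2 ratio was -0.03, above 0 after scaling to TPM (0.01) and after centring by GC content (0.05).

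S100 proteins and annexins act in pairs, and the genes of each pair differed in their ratios. *S100a10* was 3.50 times the level of *Anxa2* in control and 2.52 times in the Eomes library, with *S100a10* lower and *Anxa2* higher. *S100a11* was 67.4 times the level of *Anxa1* in control and 35.2 times in the Eomes library. Set against *Anxa2*, which S100A11 can also bind, *S100a11* was 2.12 times as high in control and 1.40 times in the Eomes library. For each of these pairs the counting intervals of the log2 ratios stood apart. Most pairs of members stood apart in the same way, partners or not, so this was not particular to these pairs.

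Both galectins were lower in the Eomes library. *Lgals1* encodes galectin-1, a dimer that T cells secrete after activation and that can induce death of activated T cells. It was the most abundant member, 1855 FPKM in control and 1453 FPKM in the Eomes library, and ranked 48 and 61 among all listed genes. Its log2 ratio was -0.35 with an interval of -0.38 to -0.33, and 2.6% of the 500 genes nearest in level had a lower one.

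*Lgals3* encodes galectin-3, which has a single sugar-binding domain on a long flexible tail and forms lattices with surface glycoproteins. It was 215.1 FPKM in control and 141.3 FPKM in the Eomes library, about 5923 and 3871 reads. The control level was 1.52-fold the Eomes level, a log2 ratio of -0.61 with an interval of -0.66 to -0.55 that spans the 1.5-fold limit. Scaled to TPM it was -0.57 and centred by GC content -0.50, both inside 1.5-fold. *Lgals1* was 8.62 times the level of *Lgals3* in control and 10.3 times in the Eomes library.

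The order of levels was nearly the same in both libraries. In control it ran *Lgals1*, *S100a10*, *S100a4*, *S100a6*, *S100a11*, *Anxa6*, *Lgals3*, *Anxa2*, *Anxa5* and *Anxa1* from high to low, and the counting intervals of all neighbours in that order stood apart. In the Eomes library *S100a11* passed *S100a6* and *Anxa2* passed *Lgals3*. There the intervals of *S100a4* and *S100a11* overlapped, as did those of *S100a11* and *S100a6*. Of the 45 pairs of members, 40 had log2 ratios whose intervals stood apart. The other 5 pairs were *S100a4* with *S100a6*, *S100a10* with *Anxa5*, *S100a10* with *Lgals1*, *S100a11* with *Anxa5*, and *Anxa5* with *Lgals1*.

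**Figure D3:**
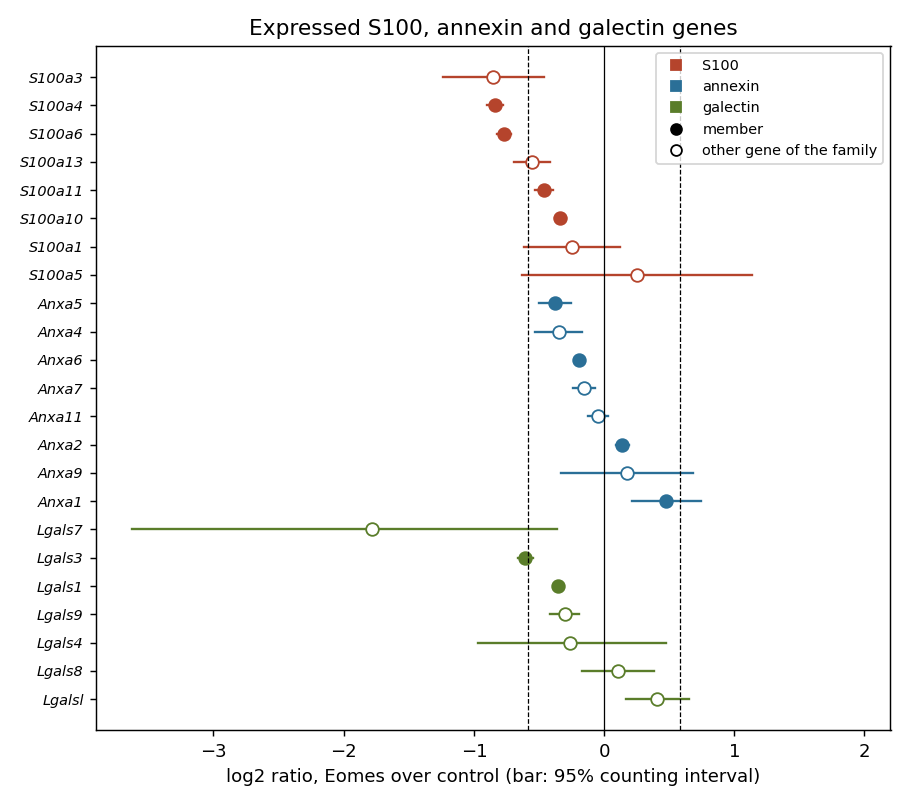
Log2 ratio, Eomes over control, with 95% counting intervals as bars, for each expressed S100, annexin and galectin gene of the fixed lists; filled points are the 10 members and open points the other genes of the family. *S100a2*, outside those lists, is not drawn. S100 genes lie left of 0 except *S100a5*, annexins lie on both sides, and the widest bars belong to genes with few reads such as *Lgals7*.

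The rest of each family was examined from fixed lists. Of 8 expressed S100 genes among the members and the list, 7 were lower and 3 were more than 1.5-fold lower, with a median log2 ratio of -0.51. Of all expressed genes, 50.5% were lower and 5.19% more than 1.5-fold lower. These 8 genes are all short, 431 to 731 bases, and short genes were lower more often. Among expressed genes of more than 500 and up to 800 bases, 71.3% were lower and 20 of 282 more than 1.5-fold lower. Among those of up to 500 bases, 64.2% were lower and 11 of 67 more than 1.5-fold lower. Beside the members, *S100a3* was 11.5 FPKM in control and 6.37 FPKM in the Eomes library. Its log2 ratio was -0.85, with an interval of -1.24 to -0.46 that spans the 1.5-fold limit. *S100a13*, an S100 gene linked to the export of proteins without a signal peptide, was 75.9 and 51.8 FPKM, a log2 ratio of -0.55. *S100a1* was 10.5 and 8.87 FPKM, a log2 ratio of -0.24 with an interval that spans 0. *S100a5* was 2.64 and 3.15 FPKM, a log2 ratio of 0.25 that also spans 0. *S100a14* and *S100a16* were under 1 FPKM in both libraries, and *S100a7a*, *S100a8*, *S100a9*, *S100b*, *S100g* and *S100z* were listed in neither.

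Of 8 expressed annexins, 3 were higher and 5 lower, 4 and 4 after centring by GC content, and 0 were past 1.5-fold, so that the directions were near the 50.5% of all expressed genes that were lower. *Anxa4*, an annexin of epithelia and secretory membranes, was 14.95 FPKM in control and 11.7 FPKM in the Eomes library, a log2 ratio of -0.35. *Anxa7* was 46.6 and 41.9 FPKM, a log2 ratio of -0.15. *Anxa11*, an annexin with a long unstructured N-terminal region, was 65.2 and 63.2 FPKM, a log2 ratio of -0.05 that was above 0 after GC centring (0.04). *Anxa9* was 1.77 and 2.0 FPKM, a log2 ratio of 0.18. The intervals of both spanned 0, from -0.12 to 0.03 for *Anxa11* and from -0.33 to 0.69 for *Anxa9*. *Anxa3* and *Anxa8* were under 1 FPKM in both libraries, and *Anxa10* and *Anxa13* were listed in neither.

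Of 7 expressed galectins, 2 were higher and 5 lower, and 2 were more than 1.5-fold lower, *Lgals3* and *Lgals7*, where 50.5% of all expressed genes were lower and 5.19% more than 1.5-fold lower. After scaling to TPM or centring by GC content 1 galectin was more than 1.5-fold lower, *Lgals7*. *Lgals9*, whose protein binds the inhibitory receptor TIM-3, was 48.4 FPKM in control and 39.3 FPKM in the Eomes library, a log2 ratio of -0.30. *Lgals7* rested on about 18 and 5 reads, 1.24 and 0.36 FPKM. *Lgals8* was 3.88 and 4.18 FPKM, *Lgalsl* was 3.84 and 5.10 FPKM, and *Lgals4* was 1.43 and 1.19 FPKM. Intervals of the log2 ratio ran from -0.17 to 0.39 for *Lgals8* and from -0.97 to 0.48 for *Lgals4*, so neither had a clear direction. *Lgals2* was under 1 FPKM in both libraries, and *Lgals6* and *Lgals12* were listed in neither.

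Partners of these proteins and enzymes that build or mask galectin ligands were examined as a list of 13 genes, of which 9 were expressed, 4 higher and 5 lower. More than 1.5-fold lower were 2 of them and more than 1.5-fold higher was 1, where 5.19% and 2.46% of all expressed genes were. *Lgals3bp*, a secreted glycoprotein that binds galectin-3, was 72.4 FPKM in control and 39.9 FPKM in the Eomes library, a log2 ratio of -0.86. *St6gal1*, the enzyme that caps N-glycans with sialic acid and so blocks galectin-1 binding, was 40.0 and 16.9 FPKM, a log2 ratio of -1.24. The branching enzymes that extend galectin ligands had the opposite sign. *Gcnt1*, which makes branched O-glycans, was 3.56 FPKM in control and 5.58 FPKM in the Eomes library, a log2 ratio of 0.65 and past 1.5-fold. Its interval of 0.44 to 0.86 spans the 1.5-fold limit, and centred by GC content it was 0.47, inside 1.5-fold. *Mgat5*, which makes the branched N-glycans bound by galectin-3, was 3.16 and 4.63 FPKM, a log2 ratio of 0.55, or 0.57 when centred by GC content.

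The protein partners of the S100 members differed less. *Cacybp*, the partner of *S100a6*, was 47.3 FPKM in control and 60.3 FPKM in the Eomes library, a log2 ratio of 0.35. *Myh9*, the heavy chain of the non-muscle myosin that S100A4 binds, was 162.3 and 147.0 FPKM, a log2 ratio of -0.14, and *Ahnak*, the scaffold bound by the S100A10 and annexin A2 complex, was 17.1 and 16.7 FPKM. Galectin-1 receptors on T cells include CD43 and CD45. *Spn*, which encodes CD43, was 150.0 and 126.2 FPKM, a log2 ratio of -0.25, and *Ptprc*, which encodes CD45, was 66.2 and 77.1 FPKM, a log2 ratio of 0.22. Centred by GC content, *Cacybp* was at 0.12, *Ptprc* at 0.04, *Myh9* at -0.05, *Ahnak* at -0.07 and *Spn* at -0.19. *Cd7* and *Plaur* were under 1 FPKM in both libraries, and the annexin A1 receptors *Fpr1* and *Fpr2* were listed in neither.

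All 4 S100 members and *Anxa5* lie on chromosome 3, and the other members on 5 chromosomes (mm10, GENCODE M21). *S100a4* lies at chr3:90603771-90606045 and *S100a6* at chr3:90612882-90624181, 6.84 kb apart on the plus strand. *S100a11* at chr3:93520488-93526287 and *S100a10* at chr3:93555080-93564643 lie 28.8 kb apart, 2896 kb from *S100a6*. *Anxa5* is at chr3:36448923-36475894, *Anxa1* at chr19:20373428-20390944 and *Anxa6* at chr11:54979108-55033445, all on the minus strand. *Anxa2* is at chr9:69453620-69491795, *Lgals3* at chr14:47367751-47386160 and *Lgals1* at chr15:78926725-78930465, all on the plus strand.

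Within 400 kb of *S100a6*, 17 protein-coding genes were expressed, 7 S100 genes and 10 others. Of the 7 S100 genes 6 were lower and 4 of them more than 1.5-fold lower, *S100a2*, *S100a3*, *S100a4* and *S100a6*, with a median log2 ratio of -0.77, where 5.19% of all expressed genes were more than 1.5-fold lower. The 10 other genes had log2 ratios between -0.27 and 0.10 with a median of -0.04, and 0 were past 1.5-fold. *S100a2*, outside the fixed lists and named after its values were seen, was 1.07 FPKM in control and 0.54 FPKM in the Eomes library on about 7 and 3 reads. Its interval of -3.80 to 0.92 spans 0, and that of *S100a3*, -1.24 to -0.46, spans the 1.5-fold limit. The 7 S100 genes are short, 315 to 731 bases, and lower values were more common among short genes. *S100a3* ends 1.07 kb before *S100a4* begins, and *S100a5*, at 0.25, lies between *S100a4* and *S100a6*.

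**Figure D4:**
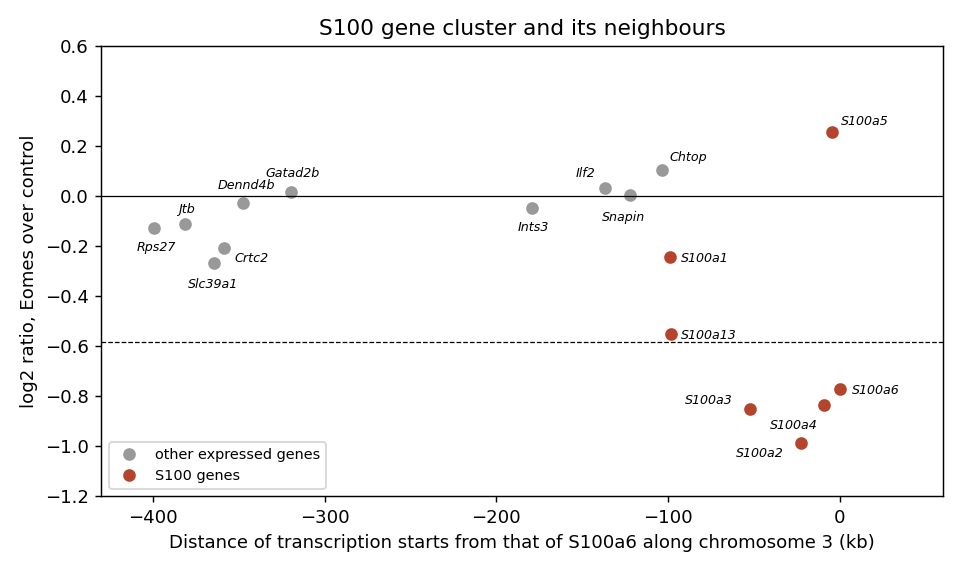
Log2 ratio, Eomes over control, of expressed protein-coding genes within 400 kb of *S100a6*, against the distance between transcription starts in kb; S100 genes are coloured, other genes grey, and the dashed line marks 1.5-fold lower. *S100a2* on few reads, *S100a3* at -0.85, *S100a4* at -0.84 and *S100a6* at -0.77 lie below the dashed line, while the 10 other genes lie between -0.27 and 0.10.

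Some reads of *S100a4*, *S100a11* and *Anxa2* could not be assigned with certainty. *S100a4* shares 302 exon bases with *Gm42674* on the same strand, and 56.3% of its stretches of 50 bases occur in another gene. For *S100a11* this share was 41.1% over 3 other genes, of which the processed pseudogene *Gm12854* shared the most stretches. Neither *Gm42674* nor *Gm12854* was listed in either library, and for the remaining 8 members the share was 0%. *Anxa2* overlaps the antisense gene *Gm16144* by 98 exon bases, and since the sources used here do not say whether the library kept strand, reads of that stretch cannot be told apart.

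Log2 ratios varied with the GC content of the transcript, from a median of 0.28 in the bin of lowest GC content to -0.09 in the highest. The members lay between 43.6% for *Anxa1* and 55.0% for *Lgals3*. Centred on the median of genes of like GC content, *S100a4* was at -0.86, *S100a6* at -0.66, *S100a11* at -0.44 and *S100a10* at -0.26. *Anxa1* was then at 0.33 and *Anxa2* at 0.20. *Lgals1* was at -0.24, and the median of the 10 members at -0.30. The part of GC content in these ratios was not tested further.

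**Figure D5:**
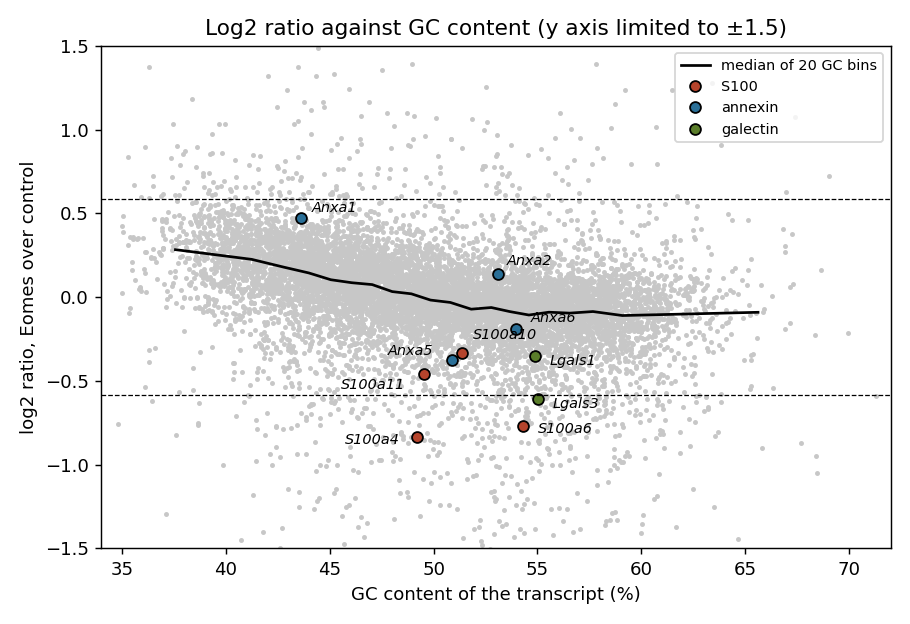
Log2 ratio, Eomes over control, against GC content of the transcript in percent, for expressed genes (grey, y axis limited to 1.5 on either side), the median of 20 bins (black line) and the 10 members (coloured by family). *S100a4*, *S100a6*, *S100a11* and *Lgals3* lie well below the line, *Anxa1* and *Anxa2* above it.

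The labelled cell type was checked against marker genes fixed with the other lists. CD8+ T cell markers were present, 6 of 6 expressed, with a summed level of 1243 FPKM in control and 891 FPKM in the Eomes library. All 6 were lower, as were 8 of 10 members, and *Cd8a* (-0.88) and *Cd2* (-0.63) were past 1.5-fold. Of all expressed genes 50.5% were lower and 5.19% more than 1.5-fold lower. Among those with a mean of at least 100 FPKM the shares were 59.2% and 0.989%. What part the lower values of these markers have in the members' values was not tested. Macrophages and neutrophils are rich in S100 proteins, annexins and galectin-3. Of their markers *Lyz2*, *Csf1r*, *Adgre1*, *S100a8*, *S100a9*, *Ngp* and *Camp* were listed in neither library, and the macrophage and dendritic list summed to 2.95 and 4.82 FPKM, nearly all from *Cd68* at 2.68 and 4.59 FPKM. The neutrophil list summed to 0.06 and 0.04 FPKM. B cell markers summed to 2.87 and 1.62 FPKM, erythroid markers to 0.61 and 0.31 FPKM and stromal markers to 1.70 and 1.52 FPKM. *Klrb1c*, the expressed natural killer marker, was 0.31 FPKM in control and 5.74 FPKM in the Eomes library, while *Ncr1* and *Klra8* were listed in neither. *Cd4* was 0.03 and 0.08 FPKM. In RNA from a population, fewer cells with a transcript and less of it per cell cannot be told apart.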

How the data were processed

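Total RNA of 2 cultures was sequenced on an Illumina HiSeq4000, 1 library per condition. Reads were filtered with SOAPnuke and mapped to mm10 with HISAT and Bowtie2, and RSEM gave the expression values; versions and any normalization between libraries are not given in the sources used here. The authors deposited FPKM values, which their methods call RPKM, for 14130 symbols in control and 13985 in Eomes cells. Symbols turned into dates (20 and 19) were left out. The authors' tabulated comparisons were not used.

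Analysis used Python 3.11.15 with scipy 1.17.1, pandas 2.3.3 and numpy 2.4.6. Figures were made with matplotlib 3.10.9. Values not listed were set to 0.01. Expressed genes had at least 1 FPKM in either library, and log2 ratios past 1.5-fold were counted. Depth was the value at which genes of 1 transcript, under 1500 bases and under 6 reads came nearest to whole reads. Within 0.2 read, 71.1% of 121 such genes were whole in control and 72.5% of 138 in the Eomes library, so read numbers are approximate. Intervals are exact (Clopper-Pearson for ratios, Poisson for levels), cover counting error only and are not replicate error. Lengths, GC content and positions came from GENCODE M21, using 1 transcript per gene, and promoters from RefSeq. The estimate of depth and the counts past 1.5-fold were tested on simulated data. The simulated reads were drawn with the same gene lengths that the estimate used, so errors from wrong lengths could not show there.

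The members and lists were chosen with earlier results of these data known. All 10 members were named, then each expressed gene of the S100, annexin and galectin lists, and from the partner and cytoskeletal lists those past 1.5-fold and direct partners. With 2 libraries, likeness of pattern has no measure and no gene was named for it. Alternatives were pseudocounts, scalings, GC centring, fold thresholds and minimum values.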

Additional observations from a re-analysis of the deposited data

How the results depend on the processing

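The 10 log2 ratios were recomputed with pseudocounts of 0.1 and 1, divided by the summed value of each library (TPM), centred on the median or trimmed mean of expressed genes, and centred by GC content, and no member changed sign. Of these, only GC centring could have changed a sign, as the scalings shifted all ratios by at most 0.032. *S100a4* and *S100a6* stayed more than 1.5-fold lower under each of these alternatives. *Lgals3* lost that call under TPM (-0.57) and GC centring (-0.50), leaving 2 lower members in place of 3. GC centring moved the median of the members from -0.36 to -0.30. With a fold threshold of 2, 0 members were lower, and with 1.2, 1 was higher and 7 were lower. The share of all genes more than 1.5-fold lower, 5.19%, was 14.2% with no minimum value and 2.83% with a minimum of 5 FPKM. Of the 60 recomputed ratios of single members, 7 moved beyond their counting interval. No paired analysis was possible because each condition has 1 library, although both titles carry the replicate number 1. For the same reason no library could be left out. Depth limits *Anxa1* most among the members, at about 208 reads in control.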

Other observations

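Cytoskeletal and adhesion genes of activated T cells, a list of 16 genes that were all expressed, were 5 higher and 11 lower in the Eomes library, with a median log2 ratio of -0.18, or -0.10 after centring by GC content. Of all expressed genes 50.5% were lower, and of those with a mean of at least 100 FPKM 59.2% were. Their summed level was 20825 FPKM in control and 20569 FPKM in the Eomes library. One gene, *Itga4*, the integrin subunit of VLA-4, was past 1.5-fold, at 1.81 FPKM in control and 1.2 FPKM in the Eomes library, a log2 ratio of -0.59 that came inside 1.5-fold when scaled to TPM and was -0.82 when centred by GC content. *Vim*, an intermediate filament gene, was at -0.34 and *Capg*, an actin-capping gene, at -0.51, while *Actb* was at 0.20 and *Itgb1*, the partner of *Itga4*, at 0.36, all 4 named after their values were seen.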
